A study of Mus musculus with 2 samples.

Results

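The 6 genes described here, *Mrc1*, *Chil3*, *Retnla*, *Mgl2*, *Clec10a* and *Fn1*, are widely used markers of alternatively activated macrophages, and they were taken by name from the 17232 genes of a single-cell table of tumor-infiltrating immune cells. The cells came from B16-OVA tumors, which grow from a mouse melanoma line carrying the model antigen ovalbumin, in *Maoa* WT and *Maoa* KO mice. The KO strain is 129S-*Maoa* tm1Shih/J, backcrossed to C57BL/6J for more than 9 generations, and per the methods the mice were females of 8 to 12 weeks; the allele, which the paper calls hypomorphic, is carried by every cell, and it is not stated whether the WT mice were littermates. Tumors were collected at day 14 after challenge, 10 of them were combined per genotype, live CD45.2+ cells were sorted, and 10000 cells per genotype were loaded for 1 library. All values are therefore of 2 libraries, with no replicate, no test and no error between mice; intervals are exact, at 95%, and cover counting error only.

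Alternative activation is the state that macrophages take up when IL-4 or IL-13 binds receptors built on IL-4Rα and activates the transcription factor STAT6. Its classical mouse readouts are endocytic lectin receptors (*Mrc1*, *Mgl2*, *Clec10a*) and secreted proteins (*Chil3*, *Retnla*, *Fn1*). In tumors several of these genes are also used by cells that are not macrophages, such as monocytes and dendritic cells (DCs), so a bulk or sorted-population level mixes cell types.

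The 6 genes lie on 5 chromosomes of GRCm38, and each is protein coding. *Mrc1* spans chr2:14229392-14332057 on the plus strand, *Chil3* chr3:106147554-106167564 on the minus strand, *Retnla* chr16:48842551-48844461 on the plus strand, and *Fn1* chr1:71585520-71653200 on the minus strand. *Mgl2* (chr11:70130329-70137550) and *Clec10a* (chr11:70156197-70170834) are neighbours on the plus strand, 18.6 kb apart. They are near copies: 24.7% of the 31-base words in the last 500 bases of the longest coding *Clec10a* transcript also occur in *Mgl2*, whereas 0% of those of *Mgl2* occur in *Clec10a*. The library reads the 3′ end of transcripts, and how reads from such stretches were assigned was not tested. Shared stretches were found for *Chil3* as well, with 22.3% of its last words shared with *Chil4*, and less for *Retnla*, with 2.55% shared with *Retnlg*.

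RefSeq promoters of GRCm38.p6 were at hand for 4 of the 6 genes. They are shown because these genes serve as readouts of STAT6, together with the lineage factors PU.1 and C/EBP. Each line runs 5′ to 3′ on the strand of the gene and ends before the first base that GENCODE gives the gene. Capitals mark a STAT6 word (TTC and GAA with any 4 bases between them), a word of other STAT factors (TTCNNNGAA), the core of PU.1 (GAGGAA, or TTCCTC on the other strand) or a C/EBP word (TTGCNNAA), searched on both strands in the 250 bases before the RefSeq start.
Retnla, chr16:48842359-48842550, plus strand: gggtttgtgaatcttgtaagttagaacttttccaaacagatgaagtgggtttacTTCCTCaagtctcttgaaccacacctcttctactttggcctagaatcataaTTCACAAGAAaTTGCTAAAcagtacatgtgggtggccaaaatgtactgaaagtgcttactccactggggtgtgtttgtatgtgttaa
Chil3, chr3:106167565-106167814, minus strand: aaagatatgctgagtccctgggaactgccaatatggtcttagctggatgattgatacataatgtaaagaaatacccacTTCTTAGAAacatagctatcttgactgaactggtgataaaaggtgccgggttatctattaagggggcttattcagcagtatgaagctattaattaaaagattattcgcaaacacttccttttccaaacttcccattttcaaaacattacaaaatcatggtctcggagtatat
Mrc1, chr2:14229164-14229391, plus strand: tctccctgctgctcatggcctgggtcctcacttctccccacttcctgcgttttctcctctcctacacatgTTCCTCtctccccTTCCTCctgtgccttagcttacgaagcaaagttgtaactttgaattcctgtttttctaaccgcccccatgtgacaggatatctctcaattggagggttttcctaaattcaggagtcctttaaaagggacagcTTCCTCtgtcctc
Mgl2, chr11:70130107-70130328, plus strand: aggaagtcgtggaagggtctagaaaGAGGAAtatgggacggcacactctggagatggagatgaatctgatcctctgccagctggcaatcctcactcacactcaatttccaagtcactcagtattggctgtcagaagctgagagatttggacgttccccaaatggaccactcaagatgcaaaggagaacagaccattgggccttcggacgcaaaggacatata
Positions count back from the RefSeq start, which lies beyond the end of the printed line for *Retnla*, *Mrc1* and *Mgl2*. *Retnla* alone of these 4 held the STAT6 word, 145 to 136 bases before its start, with a C/EBP word at 134 to 127 that it does not overlap, and a PU.1 core at 196 to 191. *Chil3* held the other STAT word at 172 to 164 bases. *Mrc1* held 3 PU.1 cores (180 to 175, 167 to 162 and 35 to 30 bases before the start) and *Mgl2* held 1 (225 to 220). Of 32851 promoters searched the same way, 5.85% held the STAT6 word, 7.02% the other STAT word, 23.3% the PU.1 core and 9.56% the C/EBP word, so each match is a description of letters and not of a bound site.

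The library labelled WT held 2392 cells at a median of 9888 UMIs (unique transcript molecules) and the library labelled KO 2630 cells at 6946; 1027 and 1073 of them fell into 9 groups of monocyte-, macrophage- and DC-like cells, clustered without these marker genes. *Maoa*, the targeted gene, had 7 UMIs in the library labelled WT and 15 in that labelled KO, or 0.243 CPM (0.0977 to 0.501; UMIs of the gene per 1000000 UMIs of the same cells) and 0.633 (0.354 to 1.04), which overlap and run against the labels, so the gene does not check them at this depth; each library is therefore called by its label. Barcodes of 13 cells occurred in both libraries. *Chil3* was also found in T cell-like cells, which should lack it, at 3.58 CPM labelled WT and 20.4 labelled KO, the same direction as its ratios given here at levels many times lower. The 175 UMIs labelled KO lay in 70 of 1124 cells, up to 36 of them in 1 cell, and 572 of 1060 and 371 of 1124 T cell-like cells also held myeloid UMIs; their part in the ratios was not tested.

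The groups were named from marker lists. A marker is called detected if at least 10% of a cluster's cells held it and its mean exceeded that over all clusters. One not counted thus need not be absent. *Hp* monocyte-like cells (113 labelled WT, 191 labelled KO) were led by *Hp*, *Cd177* and *Mgst1* and detected 11 of 12 classical monocyte markers. *Gbp2* monocyte-like cells (238 and 236) were led by *Lpl*, *Qpct* and *Gbp2* and detected 8 of 12, with macrophage markers summing to 7107 and 6632 CPM beside 6382 and 7000 for classical monocyte markers. With the members kept among the variable genes and at resolution 1.2, a cluster with *Lpl* and *Qpct* among its leading genes matched macrophage markers (9 of 15). The name is therefore loose. Nonclassical monocyte-like cells (93 and 99) detected 10 of 10 of their markers, with *S100a8*, a neutrophil gene, also among their leading genes and neutrophil markers summing to 2924 and 1793 CPM. Macrophage-like cells (117 and 86; led by *Ccl8*, *Igf1* and *Ctsk*) detected 15 of 15 macrophage markers, and cycling myeloid cells (31 and 71), led by cell cycle genes, 13 of 15. The cycling group was mixed: 7 of its cells labelled WT and 25 labelled KO came from a first-round cluster that matched cDC1 markers, with summed macrophage markers of 911 and 1223 CPM where those from macrophage-matched clusters (23 and 45 cells) had 20994 and 20639. In the 7 and 25 cells cDC2 markers also summed to 826 and 1097 CPM, beside 1414 and 1776 for cDC1 markers. cDC2-like cells (63 and 145) detected 9 of 10 markers, and cDC1-like (18 and 57) and mature DC-like cells (28 and 46) 10 of 10. A further group, with *Cxcl3*, *Inhba*, *Thbs1* and *Hilpda* among its leading genes (326 and 142 cells), detected only 5 of 12 classical monocyte markers. The first-round cluster with the same leading genes had matched macrophage markers (13 of 15), as did its second-round counterparts with 20 PCs, at resolution 0.4 and without depth regression, and macrophage markers summed to 6400 and 5674 CPM beside 6163 and 6650 for classical monocyte markers, so it is named by its genes, as the *Cxcl3 Inhba* cells.

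The 6 markers did not mark 1 kind of cell. *Mrc1* was highest in macrophage-like cells, *Chil3* and *Fn1* in *Hp* monocyte-like cells, *Mgl2* and *Clec10a* in cDC2-like cells, and *Retnla* was all but absent. The highest group was the same in both libraries for 5 of the 5 genes other than *Retnla*. In the library labelled WT the first and second groups had overlapping intervals for *Fn1* and for *Mrc1*, whose second group was the cycling myeloid cells. Within these the cells from macrophage-matched clusters held *Mrc1* at 207 and 358 CPM and those from the first-round cDC1 cluster at 15.4 and 37.3, so that labelled KO the cycling cells from macrophage-matched clusters had the higher value.

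**Figure D1:**
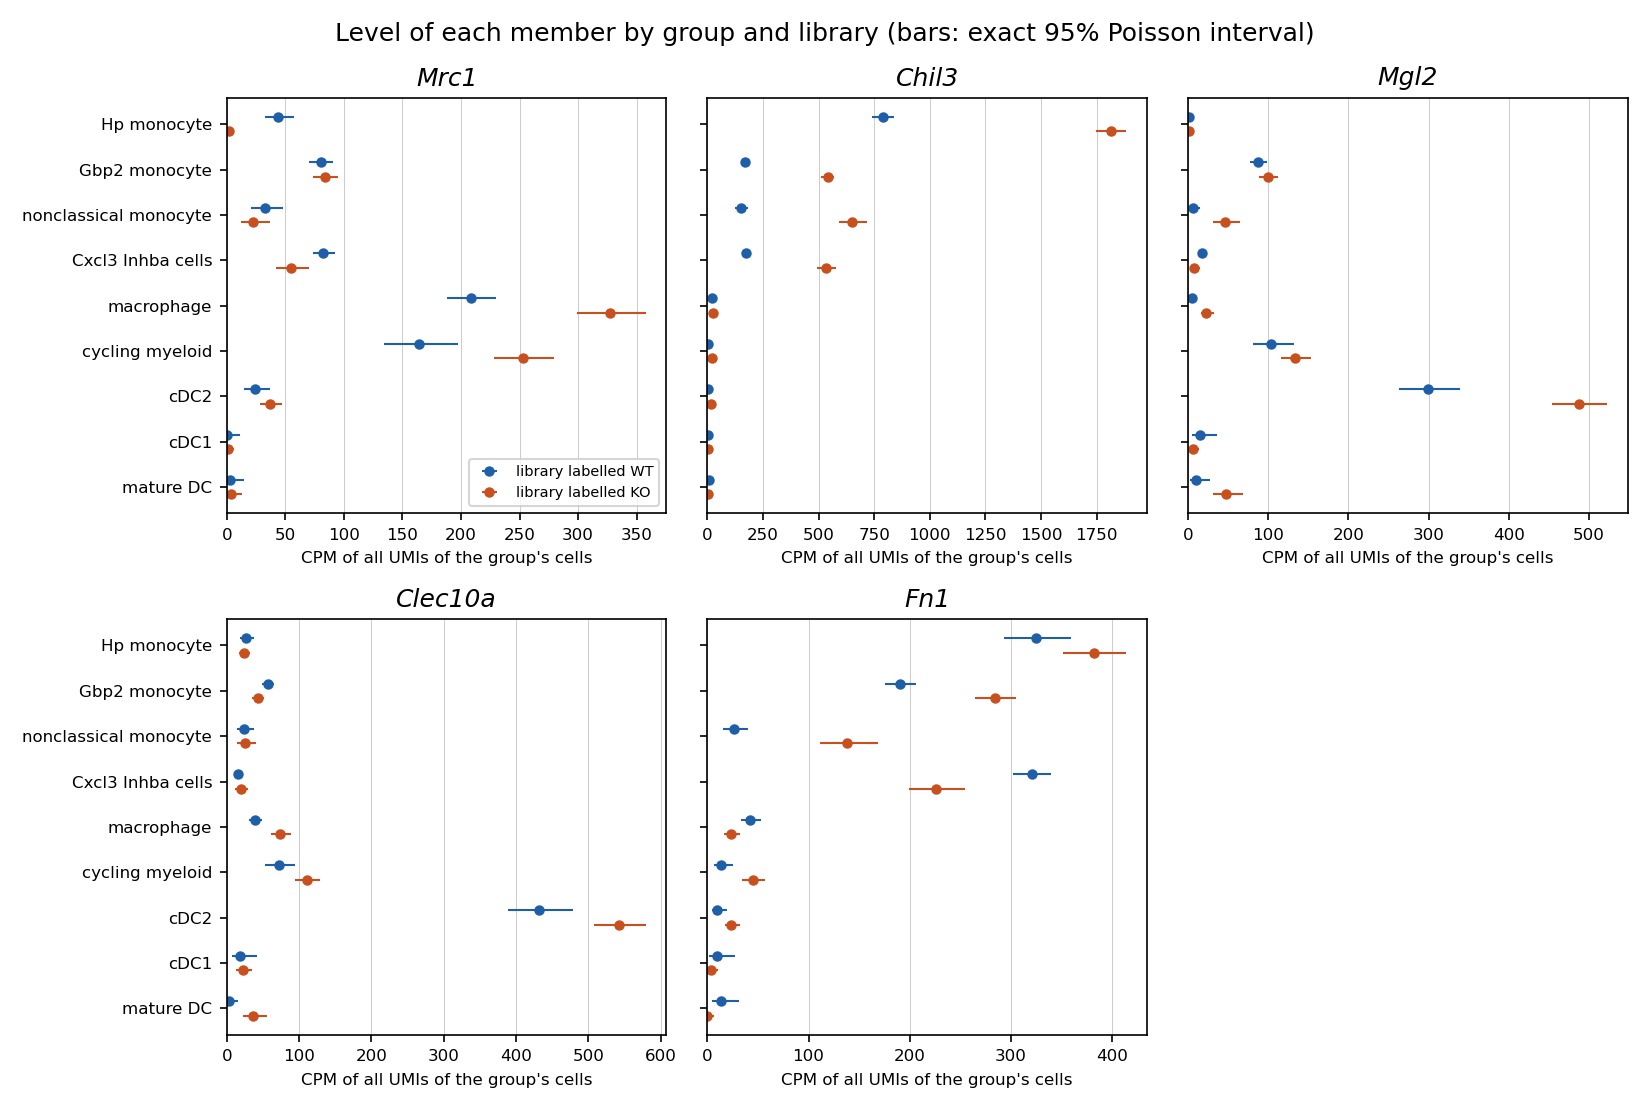
Level of 5 members (CPM of all UMIs of the group's cells, linear axes from 0) in 9 groups for the library labelled WT (blue) and KO (orange); bars are exact 95% Poisson intervals. *Mrc1* peaks in macrophage-like cells at 208 and 328 CPM, *Chil3* in *Hp* monocyte-like cells at 788 and 1814, and *Mgl2* and *Clec10a* in cDC2-like cells.

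**Figure D2:**
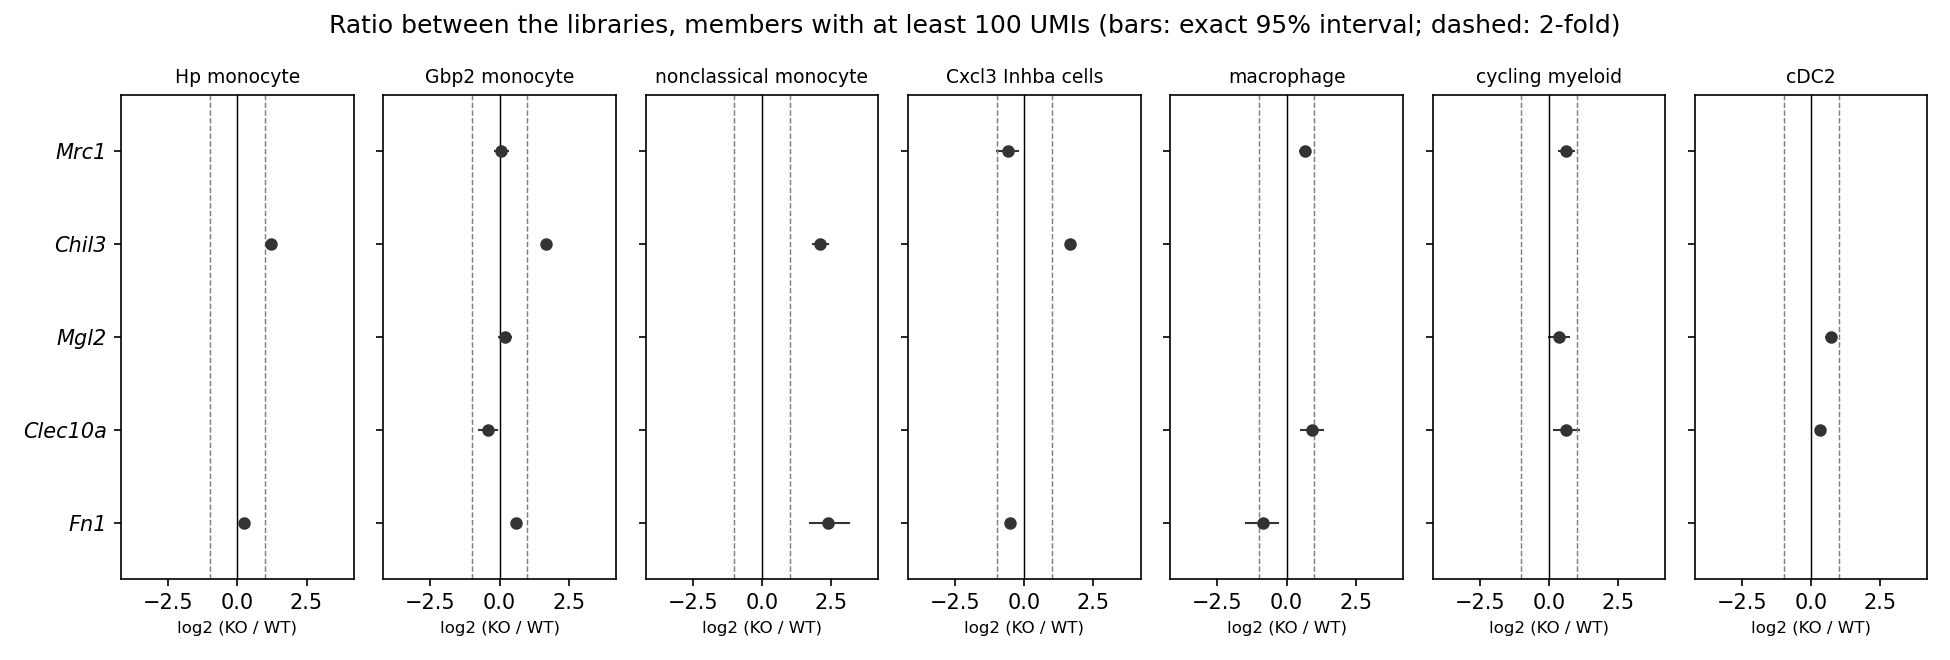
Log2 ratio of CPM in the library labelled KO over that labelled WT for each member with at least 100 UMIs over both libraries in a group; bars are exact 95% intervals, and dashed lines mark 2-fold. *Chil3* lies beyond the right-hand line in 4 groups, at 1.2 (*Hp* monocyte-like cells, under the line in 4 of 11 alternatives) to 2.10, and *Fn1* in 1, at 2.38.

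*Mrc1* encodes the mannose receptor CD206, which takes up glycoproteins. It was at 208 CPM (188 to 230) labelled WT and 328 (299 to 358) labelled KO in macrophage-like cells, so the library labelled KO was higher, with a log2 ratio (label KO over label WT, as throughout) of 0.65 (0.46 to 0.85). In the same cells the macrophage markers, no member among them, summed to 19065 and 25069 CPM, classical monocyte markers to 1184 and 805, and neutrophil markers to 310 and 54.6; their part in the differences of *Mrc1*, *Clec10a* and *Fn1* was not tested. The difference was as large without the 26 of 117 and 9 of 86 cells that also held T cell UMIs (0.76). It was smaller with 20 principal components (0.34), where the cluster also took in cycling cells. With cells taken by UMIs (3 or more from the *C1q* genes, no *Ly6c2*) it was past 2-fold (1.08). After each cell was thinned to 6000 UMIs to remove the depth difference, the shares of cells with a UMI were 51.9% (41.97 to 61.7) and 64.3% (53.1 to 74.5), which overlap; in T cell-like cells they were 1.37% and 2.24%. Cycling myeloid cells showed the same direction, 164 CPM (135 to 197) and 253 (228 to 279), with a log2 ratio of 0.62 (0.32 to 0.94), which was 0.83 without the cells of the first-round cDC1 cluster.

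*Mrc1* went the other way in the *Cxcl3 Inhba* cells, at 82.5 CPM (73.3 to 92.4) labelled WT and 54.7 (42.1 to 70.0) labelled KO, a log2 ratio of −0.58 (−1.01 to −0.19). One cell labelled KO held 27 of its 63 UMIs there, and without the top cells (that with most UMIs of the gene in each library) the log2 ratio was −1.22, while with 20 principal components it was −0.07 and at clustering resolution 0.4 it was 0.06. *Gbp2* monocyte-like cells did not differ beyond counting error, at 80.3 (70.6 to 90.8) and 83.7 (73.2 to 95.4). cDC2-like cells held 24.0 and 36.9 CPM, nonclassical monocyte-like cells 32.6 and 22.3, both with overlapping intervals, and cDC1-like and mature DC-like cells 0 to 2 UMIs. In *Hp* monocyte-like cells it had 52 UMIs labelled WT, from 6 cells, and 3 labelled KO (43.9 and 1.92 CPM), under the 100 UMIs asked for, with a log2 ratio of −4.31 (−6.84 to −2.89), lower in the library labelled KO. There macrophage markers summed to 5064 and 3225 CPM, neutrophil markers to 727 and 174 and classical monocyte markers to 11793 and 13424, and their part in this difference and in that of *Chil3* was not tested. Of the 52 *Mrc1* UMIs 23 lay in 1 cell. Over both libraries the group held 13 UMIs of *Mrc1* with 20 principal components and 2 without depth regression. The value thus rests on few cells and on the grouping.

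*Mgl2* and *Clec10a* encode galactose-type lectins, CD301b and CD301a. *Mgl2* in cDC2-like cells was at 299 CPM (263 to 339) labelled WT and 487 (454 to 522) labelled KO, a log2 ratio of 0.70 (0.50 to 0.91). *Clec10a* there was at 432 (388 to 479) and 543 (508 to 579), so that its log2 ratio was 0.33 (0.15 to 0.51). The CPM intervals do not overlap for either gene. The thinned shares do: 34.9% (23.3 to 48.0) and 41.1% (32.9 to 49.7) for *Mgl2*, and 55.6% (42.5 to 68.1) and 64.5% (56.1 to 72.4) for *Clec10a*. The cDC2 markers, neither gene among them, also summed to more labelled KO, 2644 CPM against 1568, and 12 of 63 cells labelled WT and 11 of 145 labelled KO held T cell UMIs. Without cells that held T cell UMIs *Mgl2* was at 255 and 512 CPM. In cells taken by UMIs of *Flt3* and *Zbtb46* with no *C1q* UMI it was at 12.2 (3 UMIs in 19 cells) and 119 (68 in 42). That rule did not exclude cDC1-like or mature DC-like cells. The part of cell composition in these differences was not tested.

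Outside cDC2-like cells the lectin pair had smaller peaks. *Mgl2* reached 104 CPM (81.2 to 132) and 133 (115 to 153) in cycling myeloid cells and 87.6 (77.5 to 98.7) and 99.96 (88.4 to 113) in *Gbp2* monocyte-like cells, where the top 10% of cells held 97.8% and 95.2% of its UMIs. A small subset of these cells thus carried nearly all of it. *Clec10a* was at 71.5 (52.7 to 94.7) and 111 (94.4 to 129) in cycling myeloid cells, and at 38.7 (30.5 to 48.6) and 73.7 (60.7 to 88.7) in macrophage-like cells, a log2 ratio of 0.92 with an interval of 0.49 to 1.37. The cycling group's lectin levels were higher in its cells from the first-round cDC1 cluster, with *Mgl2* at 139 and 281 CPM and *Clec10a* at 139 and 244, against 76.8 and 56.4, and 55.7 and 48.3, in those from macrophage-matched clusters. The former held most of the group's UMIs of these genes labelled KO (136 of 200 and 118 of 166) but not labelled WT (18 of 70 and 18 of 48). Without the cells of the cDC1 cluster the log2 ratios of the group turned from 0.35 to −0.61 for *Mgl2* and from 0.62 to −0.24 for *Clec10a*. In *Gbp2* monocyte-like cells *Clec10a* had a log2 ratio of −0.41, which was −0.19 without the top cells and −0.06 without depth regression. Macrophage-like cells held only 11 and 35 UMIs of *Mgl2*, too few to be counted, with a log2 ratio of 1.97 (1.01 to 3.14).

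*Chil3* encodes Ym1, a secreted chitinase-like protein without enzyme activity. It was at 788 CPM (738 to 840) labelled WT and 1814 (1748 to 1882) labelled KO in *Hp* monocyte-like cells, a log2 ratio of 1.2 (1.10 to 1.31), which was under 2-fold in 4 of 11 alternatives, at 0.87 to 0.98, thinning to equal depth among them. The library labelled KO was higher in the other 3 groups with many UMIs too. *Gbp2* monocyte-like cells held 169 (155 to 184) and 540 (513 to 569), for a log2 ratio of 1.68 (1.53 to 1.82). Nonclassical monocyte-like cells held 151 (125 to 181) and 651 (592 to 715), with 2.10 (1.81 to 2.42), and the *Cxcl3 Inhba* cells 172 (159 to 187) and 535 (494 to 579), with 1.63 (1.47 to 1.80). Neutrophil markers summed to 230 and 66.0 CPM in *Gbp2* monocyte-like cells and to 643 and 94.7 in the *Cxcl3 Inhba* cells, against the direction of *Chil3*. Classical monocyte markers, given above, were higher labelled KO in both. In nonclassical monocyte-like cells classical monocyte markers summed to 8785 and 10413.5 CPM, beside 1746 and 2116 for nonclassical ones, all higher labelled KO. The part of these markers in the differences of the members in these groups, that of *Fn1* among them, was not tested. Macrophage-like cells had little: 21.7 CPM (15.6 to 29.3) and 25.0 (17.7 to 34.3), which overlap. Thinned shares in *Hp* monocyte-like cells were 63.2% (53.3 to 72.4) and 74.0% (66.8 to 80.4), which overlap, while in the *Cxcl3 Inhba* cells they were 29.6% (24.5 to 35.2) and 51.4% (41.7 to 61.0), which are apart. T cell-like cells had 2.47% and 5.49%.

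*Fn1* encodes fibronectin, a glycoprotein of the extracellular matrix. It was at 325 CPM (293 to 359) and 382 (352 to 414) in *Hp* monocyte-like cells, with thinned shares of 81.1% and 74.6%, the most even of the 5 genes in the groups where each peaked: the top 10% of cells held 28.1% and 33.3% of its UMIs. In the *Cxcl3 Inhba* cells it was at 321 (302 to 340) labelled WT and 226 (199 to 255) labelled KO, a log2 ratio of −0.50 (−0.71 to −0.31). *Gbp2* monocyte-like cells went the other way, at 191 (176 to 207) and 284 (264 to 305). Among groups with at least 100 UMIs of this gene, nonclassical monocyte-like cells showed the widest gap. They held 20 UMIs (26.0 CPM, 15.9 to 40.2) labelled WT and 93 UMIs (138 CPM, 111 to 169) labelled KO, a log2 ratio of 2.38 (1.70 to 3.18). Macrophage-like cells held 42.4 (33.7 to 52.6) and 23.0 (16.0 to 32.0), where 1 cell labelled KO held 19 of 35 UMIs. The log2 ratio there was −0.87, −1.71 without the top cells and 0.57 at clustering resolution 1.2, so its direction depended on the grouping.

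*Retnla* encodes RELMα, a secreted protein that IL-4 strongly induces in many mouse macrophages. In the library labelled WT it had 0 UMIs in 2392 cells, which allows up to 0.125% of cells with a UMI. In that labelled KO it had 6 UMIs, all in 1 cycling cell. Its near copies and those of *Chil3* were looked at as well: *Chil4* had 0 and 2 UMIs in all cells, and *Retnlg*, a neutrophil gene, 351 UMIs in 169 cells labelled WT and 144 in 11 cells labelled KO.

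**Figure D3:**
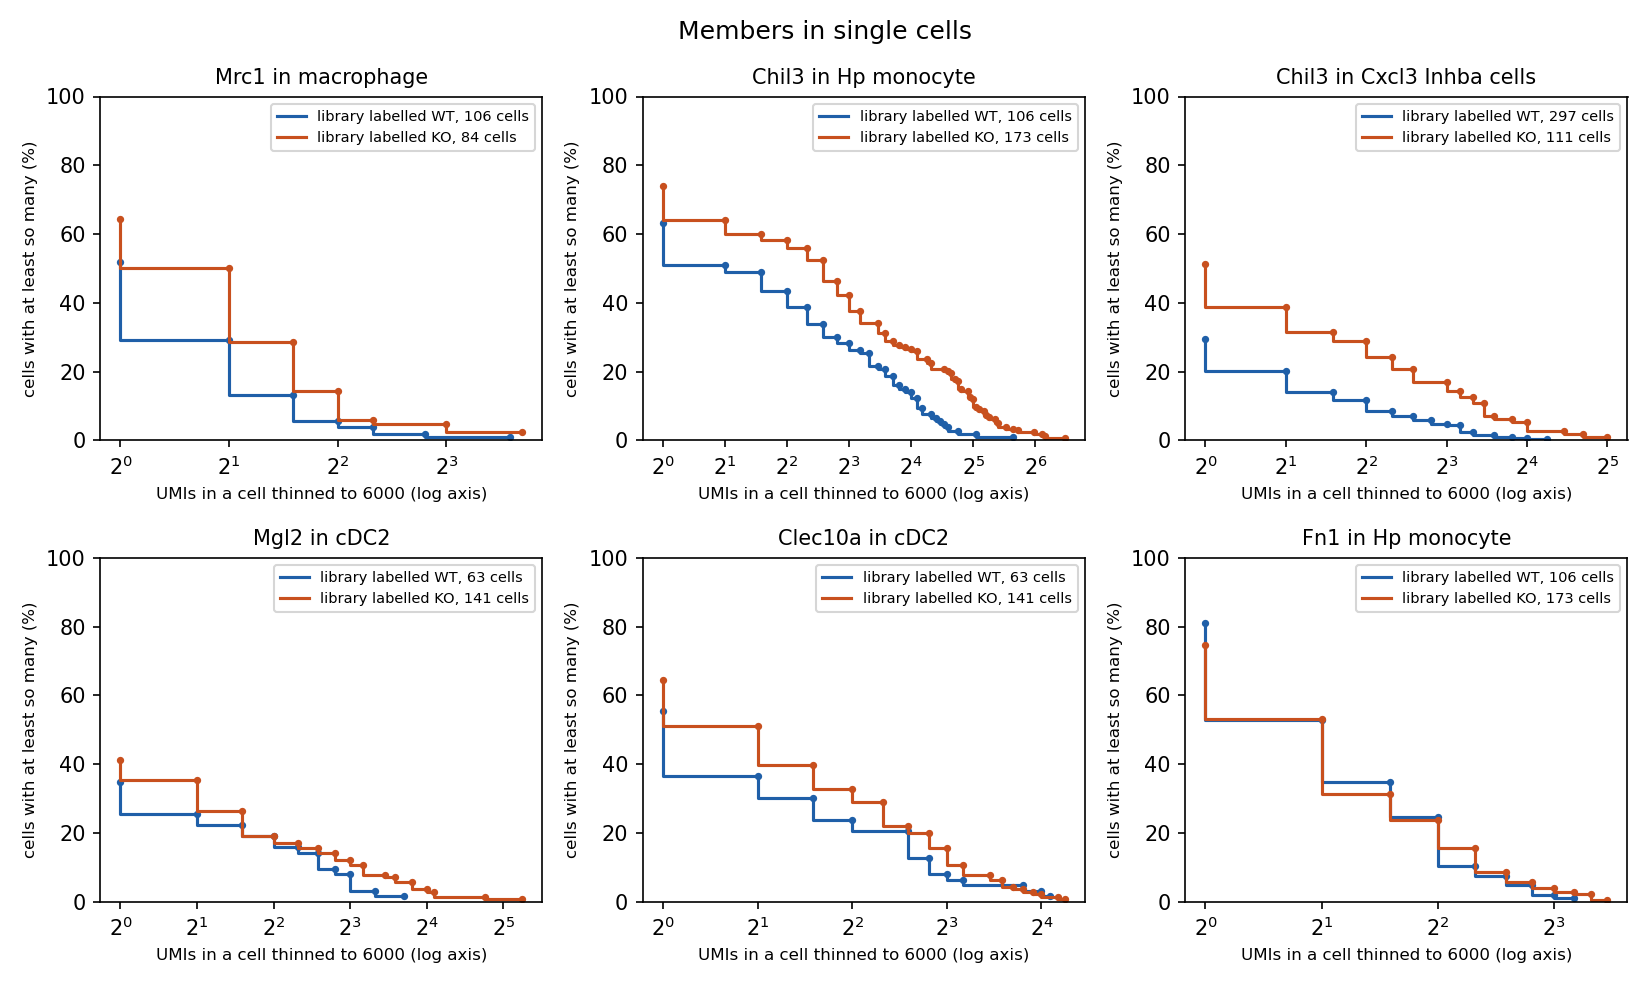
Percent of cells (y axis) with at least a given number of UMIs (x axis, log scale) after thinning each cell to 6000 UMIs, for 6 pairs of member and group; blue is the library labelled WT and orange that labelled KO. The *Chil3* curve labelled KO lies above that labelled WT over the whole range in the *Cxcl3 Inhba* cells, from 51.4% and 29.6% at 1 UMI, while the *Fn1* curves in *Hp* monocyte-like cells run close together.

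Counted over groups, 20 pairs of member and group had at least 100 UMIs, and 5 of them lay past 2-fold, 5 higher and 0 lower in the library labelled KO; *Chil3* gave 4, that in *Hp* monocyte-like cells lost in 4 of 11 alternatives, and *Fn1* 1, in nonclassical monocyte-like cells, where it had under 100 UMIs and so was not counted in 3 alternatives (log2 ratios 1.45 to 2.31). By group, 1 of 2 counted members lay past 2-fold in *Hp* monocyte-like cells, where 3.29% of all genes with as many UMIs did. The share of all genes was 1.56% in *Gbp2* monocyte-like cells (1 of 5 members), 3.22% in nonclassical monocyte-like cells (2 of 2) and 4.32% in the *Cxcl3 Inhba* cells (1 of 3). It was 2.37% in macrophage-like cells (0 of 3), 2.59% in cycling myeloid cells (0 of 3) and 3.42% in cDC2-like cells (0 of 2). In cDC1-like and mature DC-like cells no member had enough UMIs. The median log2 ratio of all genes lay between −0.08 and 0.07 in the 7 groups. The macrophage-like group, whose name the markers carry, thus had none of its 3 counted members past 2-fold. It had 1 in 5 alternatives, of which that with 20 PCs put cycling cells in the same cluster. Thinned to equal depth, *Clec10a* had a log2 ratio of 1.25 and *Fn1* of −2.27, on 61 and 45 UMIs and so not counted. *Mrc1* and *Clec10a* were higher in macrophage-like cells in the library labelled KO, and the direction of *Fn1* there depended on the grouping.

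Within single cells, thinned as above, some members were found together and others apart. For the pair of neighbouring lectins the intervals were apart in 2 of the 6 comparisons given here. In *Gbp2* monocyte-like cells labelled WT *Clec10a* was found in 60.0% (36.1 to 80.9) of cells with *Mgl2* and 8.65% (5.21 to 13.3) of cells without it, and labelled KO in 32.1% (15.9 to 52.4) and 13.4% (8.95 to 19.0). The intervals are apart labelled WT and overlap labelled KO. Both genes were found in 5.26% of such cells labelled WT, and in 0% with at least 2 UMIs of each. In cDC2-like cells labelled KO the shares were 77.6% (64.7 to 87.5) and 55.4% (44.1 to 66.3), and labelled WT 59.1% and 53.7%, with overlapping intervals in both libraries. Cycling myeloid cells labelled KO gave 56.5% (34.5 to 76.8) and 17.4% (7.82 to 31.4), which are apart, and those labelled WT, with 8 cells holding *Mgl2*, 25.0% and 19.0%; labelled KO, the 25 cells of the first-round cDC1 cluster held 136 UMIs of *Mgl2* and 118 of *Clec10a*, against 56 and 48 in the 45 cells of macrophage-matched clusters.

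*Mrc1* and *Clec10a* were found together in 7.55% (label WT) and 25.0% (label KO) of macrophage-like cells. *Clec10a* was found there in 14.5% (6.50 to 26.7) of cells with *Mrc1* and 11.8% (4.44 to 23.9) of cells without it labelled WT, and in 38.9% (25.9 to 53.1) and 13.3% (3.76 to 30.7) labelled KO, with overlapping intervals in both libraries.

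*Chil3* and *Fn1* occurred together in 52.8% and 57.8% of *Hp* monocyte-like cells, close to the products of their shares, 51.3% and 55.2%. *Chil3* and *Mgl2* were seldom found together in *Gbp2* monocyte-like cells, where *Mgl2* was found in 2.63% (0.32 to 9.18) of cells with *Chil3* and 11.8% (7.17 to 18.1) of cells without it labelled WT, and in 4.21% (1.16 to 10.4) and 18.9% (12.4994 to 26.8) labelled KO, apart only in the latter. *Clec10a* was likewise found in 6.58% of such cells with *Chil3* and 16.4% without it labelled WT, and in 9.47% and 20.5% labelled KO, with overlapping intervals in both. *Mrc1* went with *Mgl2* there, *Mgl2* being found in 19.0% of cells with *Mrc1* and 6.45% without it labelled WT and in 31.1% and 7.91% labelled KO, with intervals apart only in the latter. Cells with 3 or more of the 6 members made up 9.46% of *Gbp2* monocyte-like cells labelled KO and 7.46% of those labelled WT, 17.4% and 6.90% of cycling myeloid cells, and 7.14% and 1.89% of macrophage-like cells. In *Hp* monocyte-like cells they made up 6.94% and 7.55%, the other direction. The intervals overlap in each of these groups, and the most found in 1 cell was 5. At the other end, 94.4% and 89.5% of cDC1-like cells labelled WT and KO and 80.0% and 89.1% of mature DC-like cells held none.

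**Figure D4:**
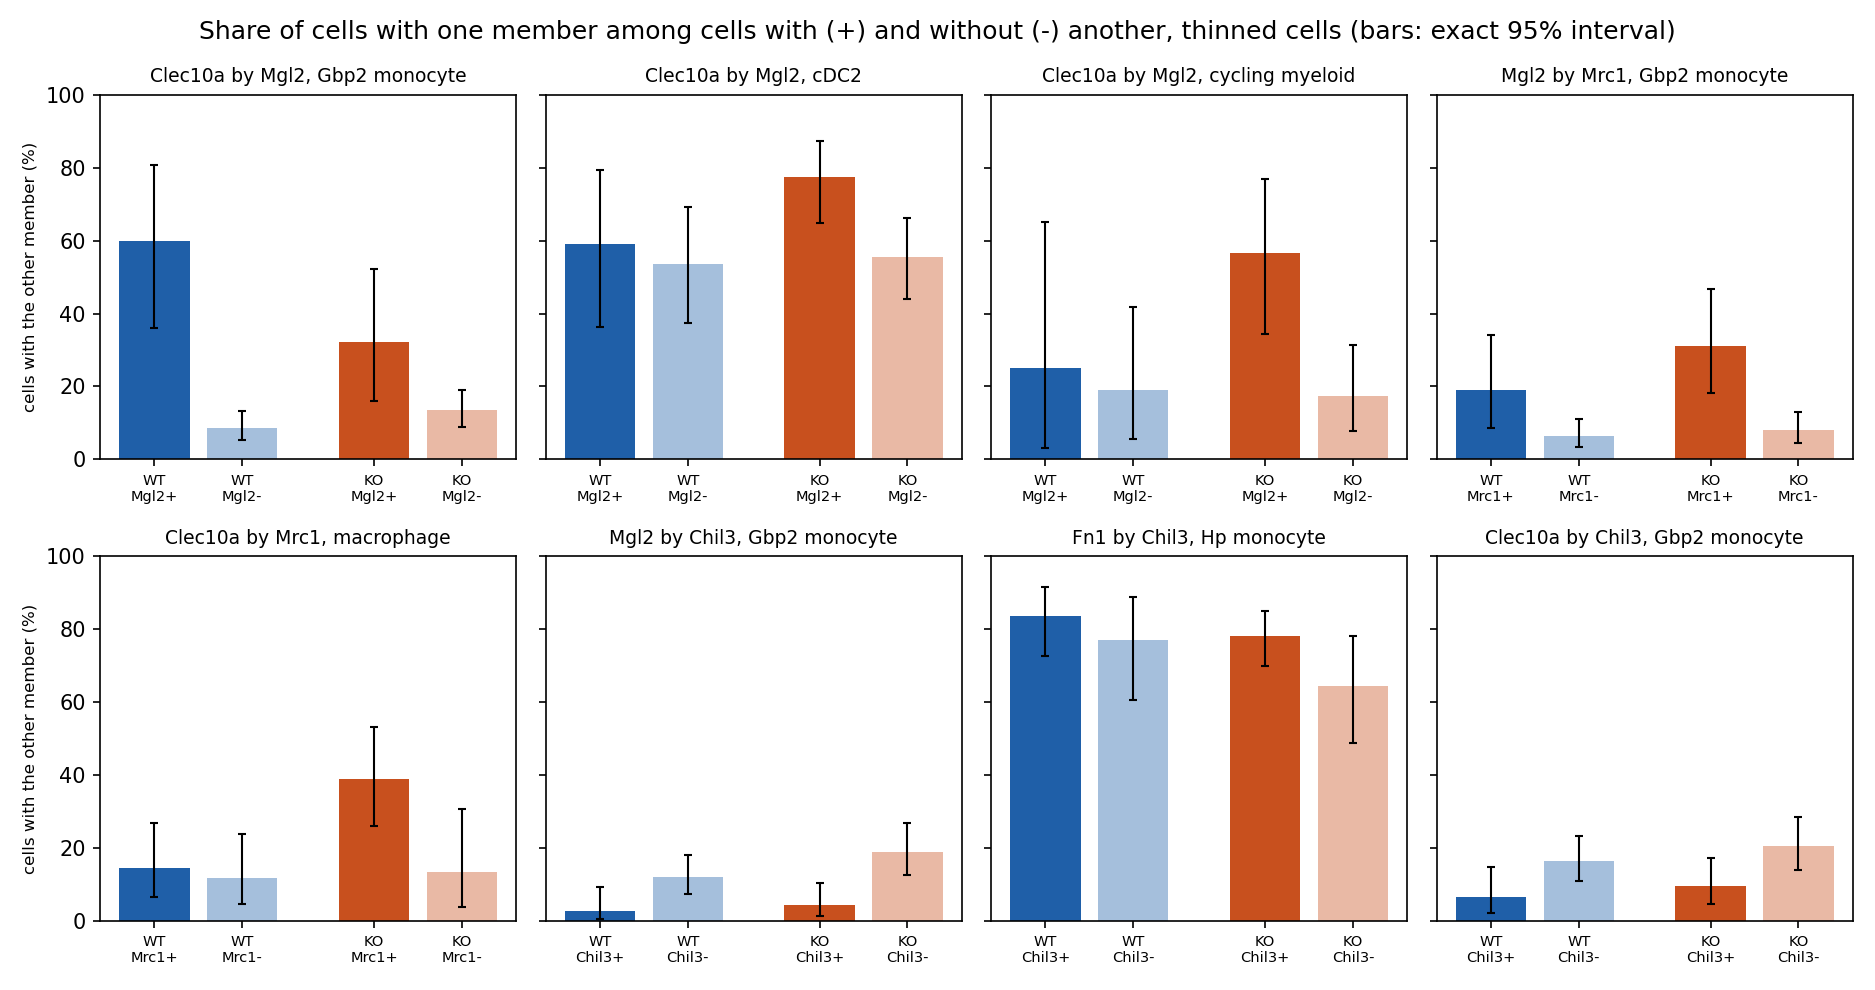
Percent of thinned cells with a second member (y axis, from 0) among cells with (+, dark) and without (-, light) a first member, for 8 pairs and groups in the library labelled WT (blue) and KO (orange); bars are exact 95% intervals. *Clec10a* is more frequent in cells with *Mgl2* in *Gbp2* monocyte-like cells (60.0% and 8.65% labelled WT; the intervals labelled KO overlap), and *Mgl2* is less frequent in those with *Chil3* (4.21% and 18.9% labelled KO; the intervals labelled WT overlap).

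The genes whose pattern over cells was most like that of each member differed between members. These are Pearson correlations of log values over 1027 and 1073 cells of all 9 groups, among 4637 genes; cells share library and depth, and the values are descriptions. *Mrc1* was closest to *Pf4* (0.54 and 0.62), then *Ccl8* and *Dab2*. *Chil3* was closest to *Hp*, which encodes haptoglobin (0.45 and 0.48), then *Lyz2* and *Msrb1*. *Mgl2* was closest to *H2-DMb2*, which loads peptides on MHC class II (0.36 and 0.38), then *Clec10a* and *Ccnd1*, and *Clec10a* to *Cd209a* (0.53 and 0.66), then *H2-DMb2* and *Mgl2*. *Fn1* was closest to *F13a1*, a transglutaminase of clotting (0.52 and 0.43), then *Ccl9* and *Lyz2*. Between members the highest values were those of *Mgl2* with *Clec10a* (0.31 and 0.47) and *Chil3* with *Fn1* (0.25 and 0.34), while *Chil3* with *Mrc1* was at −0.13 and −0.17.

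Of the pathway around these markers, the ligands were at the limit of detection. *Il4* had 2 and 3 UMIs and *Il13* 5 and 6 in all cells of the libraries labelled WT and KO. Of 4 receptor chains 3 were in the table, and none lay past 2-fold in the *Cxcl3 Inhba* cells (3 counted) or macrophage-like cells (2 counted): *Il4ra* was at 98.7 CPM (88.7 to 110) and 78.2 (62.9 to 96.1) in the former and 93.0 (79.9 to 108) and 109 (92.6 to 126) in the latter. *Stat6* was at 50.8 and 43.4 CPM in the *Cxcl3 Inhba* cells and 53.2 and 47.4 in macrophage-like cells, with overlapping intervals in both. Of 11 signal transducers and transcription factors, 5 were counted in each of these groups and 1 lay past 2-fold in each, *Socs1*, an inhibitor of cytokine signalling (log2 −1.32), and *Klf4* (−1.09).

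Of 19 other genes linked to alternative activation, 9 were counted in the *Cxcl3 Inhba* cells, where 0 lay past 2-fold higher and 3 lower in the library labelled KO, with a median log2 ratio of −0.36. The 3 were *Mmp12*, macrophage elastase (1096 and 288 CPM), *Cd36*, a fatty acid and scavenger receptor (352 and 167), and *Pdcd1lg2*, the PD-1 ligand PD-L2 (30.6 and 12.2). In macrophage-like cells 6 were counted, with *Stab1*, a scavenger receptor, higher at 150 and 331 CPM and *Mmp12* lower at 1577 and 622, and a median of −0.55. In *Hp* monocyte-like cells 5 were counted, 0 past 2-fold higher and 3 lower (*Mmp12*, *Cd36* and *Tgm2*, a transglutaminase), with a median of −1.11, the other direction from *Chil3* in the same cells, beside the lower macrophage marker sum given above. In *Gbp2* and nonclassical monocyte-like cells 1 lay higher and 1 lower of 9 and 3 counted, in cycling myeloid cells 2 and 2 of 6, and in cDC2-like cells 1 of 2 lower. Of all genes 0.781% lay past 2-fold higher and 2.505% lower in *Hp* monocyte-like cells, 0.328% and 1.23% in *Gbp2* and 0.777% and 2.44% in nonclassical monocyte-like cells, 0.963% and 1.63% in cycling myeloid cells and 0.748% and 2.67% in cDC2-like cells. Of 12 classical activation genes, 9 were counted in the *Cxcl3 Inhba* cells, 0 past 2-fold higher and 2 lower: *Nos2*, inducible nitric oxide synthase (90.0 and 27.8 CPM), and *Cxcl10* (370 and 107). In macrophage-like cells *Nos2* (49.1 and 7.89) and *Il1b* (87.8 and 23.7) were lower and *Cxcl10* (35.1 and 79.6) higher, among 8 counted. Of all genes, 3.196% lay past 2-fold lower and 1.12% higher in the *Cxcl3 Inhba* cells, and 1.59% and 0.780% in macrophage-like cells.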

How the data were processed

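The authors sequenced Chromium 3′ V2 libraries, counted UMIs with Cell Ranger (build mm10 per the submitters' processing notes), aggregated both libraries, filtered cells (at least 300 UMIs and 100 genes, under 5% mitochondrial) and normalised with Seurat. What the authors deposited is a table described as counts, yet its values are the natural log of 1 plus UMIs per 10000 per cell. UMIs were recovered by dividing by the smallest step of each cell: 100% of nonzero values came out whole within 0.01 in all 5022 cells. These UMIs were used throughout.

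Cells were clustered in 2 rounds (Seurat 5.3.0, R 4.3.3: variable genes by mean and dispersion with the 7 marker genes left out, depth regressed, 13 PCs, resolution 0.8). A cluster took the class of which most markers were found in at least 10% of its cells. Of 10 second-round clusters, 1 that matched T cell markers was set aside, and no doublet caller was run; cells with 3 or more *Cd3* UMIs plus at least 5 UMIs over 8 myeloid genes were left out as an alternative. The libraries held 28801253 (labelled WT) and 23702018 (labelled KO) UMIs.

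No test was run, each genotype having 1 library. CPM have exact Poisson intervals, shares of cells Clopper-Pearson intervals, and log2 ratios (0.5 UMIs added) binomial intervals conditional on the sum, all at 95%. Past 2-fold means an absolute log2 ratio of at least 1 with at least 100 UMIs in both libraries together. For coexpression, each cell was thinned to 6000 UMIs (seed 20) and shallower cells were left out. A share of 0 is given with the limit that 3 counts allow.

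Named were all members, the 3 genes most correlated with each (lower of both libraries, at least 500 UMIs), and, from the pathway lists, the 3 with most CPM and those past 2-fold in *Cxcl3 Inhba* or macrophage-like cells. *Stat6*, *Tgm2*, *Chil4*, *Retnlg*, *Il4* and *Il13* are on those lists and were named after their values were seen. Of the 7 marker genes chosen, 6 are described; results of 1 further marker and of 1 list are not reported here. Members and lists were chosen with earlier results of these data known. Intervals were checked on simulated Poisson sums per gene. These lack the clumping of UMIs in few cells seen here, so the coverage of the intervals under clumping was not tested. Thinning was checked on the macrophage-like cells. Positions are from GENCODE M21 (GRCm38) and promoters from RefSeq. Python 3.11.15 with numpy 2.4.6 and scipy 1.17.1 was used.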

Additional observations from a re-analysis of the deposited data

Results flagged for a closer look

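The direction between the libraries differed between groups for 3 members, with 95% counting intervals wholly on opposite sides of 0 among groups with at least 100 UMIs of the gene; with 1 library per genotype the difference was not tested. *Mrc1* had a log2 ratio (KO label over WT label) of 0.65 in macrophage-like cells and −0.58 in the *Cxcl3 Inhba* cells, the latter −0.07 with 20 PCs and 0.06 at resolution 0.4. *Clec10a* had 0.92 in macrophage-like cells and −0.41 in *Gbp2* monocyte-like cells, the latter −0.06 without depth regression. *Mgl2* had 0.70 in cDC2-like cells and, on only 63 and 9 UMIs, −1.11 in the *Cxcl3 Inhba* cells. *Fn1* had 2.38 in nonclassical monocyte-like cells and −0.87 in macrophage-like cells. The latter turned to 0.55 when the members were kept among the variable genes, 0.57 at resolution 1.2 and 0.11 without depth regression. With 20 PCs it was 0.16, in a cluster that also held cycling cells. *Fn1* also had 0.57 in *Gbp2* monocyte-like cells and −0.50 in the *Cxcl3 Inhba* cells, with ranges of 0.42 to 0.80 and −0.65 to −0.42 over 11 alternatives.

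A signal also lay outside the groups described: plasmacytoid DC-like cells held *Clec10a* at 358 CPM labelled WT and 303 labelled KO, where T cell-like cells held 5.38 and 5.94. *Mgl2*, its neighbour, was at 37.7 and 30.5 CPM in the same cells.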

How the results depend on the processing

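The highest group was the same in both libraries for 5 of 5 members under 8 of the 10 alternatives it was computed for. It was so for 4 (*Fn1* differed) at resolution 0.4 and 1.2. At 0.4 cycling myeloid and macrophage-like cells shared 1 cluster, where *Mrc1* was highest. It held 198 cells against 102 and 203 in these groups, so some lay elsewhere, and no value could be had for macrophage-like cells alone. *Hp* and nonclassical monocyte-like cells also shared 1 cluster at 0.4. The highest group was not computed for UMI rules, which give 3 kinds of cell that are not the groups named. The rule of *Flt3* and *Zbtb46* with no *C1q* UMI (19 and 42 cells) did not exclude cDC1-like or mature DC-like cells. The rule of *Ly6c2* took 242 and 335 cells, against 113 and 191 *Hp* monocyte-like cells. Labelled WT, *Mgl2* and *Clec10a* were higher in cells taken as macrophages (129 and 65.9 CPM) than in those taken by *Flt3* and *Zbtb46* (12.2 and 56.7). Labelled KO they were higher in the latter (119 and 167 against 107 and 87.6). The counts of members past 2-fold moved as follows. In macrophage-like cells (0) it was 1 with 20 PCs, without cells with T cell and myeloid UMIs (*Fn1*, −1.06) and with the mean over cells. It was also 1 without the cell with most UMIs of the gene (*Fn1*, −1.71) and with cells taken by UMI rules (*Mrc1*, 1.08). With 20 PCs no cycling group formed, and cell cycle genes were among the leading genes of the macrophage cluster. Its values are thus of both kinds of cell, with 315 UMIs of *Mgl2* over both libraries. In nonclassical monocyte-like cells (2) it was 1 with 20 PCs, no depth regression and thinned cells, where *Fn1* kept log2 ratios of 1.60, 1.45 and 2.31 but had 72, 63 and 62 UMIs, under the 100 asked for. In *Hp* monocyte-like cells (1) it was 0 with 20 PCs, no depth regression, thinned cells and the mean over cells, where *Chil3* had log2 ratios of 0.97, 0.87, 0.98 and 0.90, and 2 with UMI rules. In the *Cxcl3 Inhba* cells (1) it was 2 without the cell with most UMIs (*Mrc1*, −1.22). In cycling myeloid cells (0) it was 1 at resolution 0.4, and in cDC2-like cells (0) it was 1 without cells with T cell and myeloid UMIs (*Mgl2*, 1.01) and with UMI rules. The causes were not tested.

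Shares of cells with both members moved with the definition of a positive cell. Without thinning *Mgl2* and *Clec10a* were both found in 41.4% of cDC2-like and 8.90% of *Gbp2* monocyte-like cells labelled KO. With at least 2 UMIs these were 23.4% and 1.35%, that of *Gbp2* monocyte-like cells labelled WT was 0%, and *Chil3* and *Fn1* were both found in 29.2% and 34.7% of *Hp* monocyte-like cells labelled WT and KO.

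*Chil3* in *Gbp2* monocyte-like cells ranged from 1.51 to 1.77 over 11 alternatives. No ratio past 2-fold changed direction. *Clec10a* in macrophage-like cells was 0.34 with the members kept among the variable genes. The removal of top cells, the UMI rules applied to counts and the removal of cycling cells from a DC cluster were chosen after the data were seen. No paired analysis was possible because each genotype has 1 library.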
